A study of Homo sapiens with 22 samples.

Results

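LIN28A, LIN28B, IGF2BP1, IGF2BP2, IGF2BP3, HMGA1, HMGA2, SALL4, IRS4 and PAX2 are 10 of the 26485 gene symbols counted in 22 RNA-seq libraries labelled as a human breast cancer line. They were chosen by name as genes that embryonic tissues use and most adult tissues silence, and they were selected on earlier results of these data, in which some of them separated the libraries sharply. Their presence in one set of libraries and absence from another is therefore described here without a test. All 22 libraries are labelled MDA-MB231, a triple-negative (lacking the oestrogen and progesterone receptors and HER2 amplification) breast epithelial line kept in DMEM with fetal bovine serum. The study asked what happens when HDAC6 (an enzyme that removes acetyl groups, best known from tubulin in the cytoplasm) is inhibited or depleted.

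In the Nexturastat A experiment 2 Ctrl libraries (genotype WT, treated with the solvent DMSO) and 2 Nexturastat A libraries (WT, 7.65 µM) were made on day 2. In the hairpin experiment 3 shCtrl libraries (WT), 3 shHDAC6-1 libraries and 3 shHDAC6-2 libraries (both labelled HDAC6 knockdown) were made on day 0. In another experiment 3 DMSO, 3 HPOB and 3 Tubastatin A libraries, all WT, were made on day 2; the labels give no dose for HPOB or Tubastatin A. The titles of the Tubastatin A group carry the letters TSA while their treatment label reads Tubastatin A, and the treatment label is followed here. The labels do not say whether a hairpin group is 1 clone or a pool, nor whether replicates came from separate cultures. The p-values therefore measure the spread between these libraries, which may be technical.

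LIN28A and LIN28B are RNA-binding proteins that stop let-7 precursors from being processed, and let-7 microRNAs in turn lower LIN28B, HMGA2 and IGF2BP1 through sites in their 3′ untranslated regions (3′UTRs). IGF2BP1, IGF2BP2 and IGF2BP3 bind and stabilise mRNAs such as MYC. HMGA1 and HMGA2 are small proteins that bend AT-rich DNA in chromatin. SALL4 is a zinc-finger repressor of embryonic stem cells, IRS4 is an adaptor of the insulin and IGF1 receptors with little adult expression, and PAX2 is a transcription factor of the developing kidney.

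The let-7 family shares the seed (bases 2 to 8) shown in capitals in these mature sequences, taken from RefSeq (GRCh38.p14); they are shown because the 3′UTRs of 9 of the 10 genes hold its complement. let-7a-5p lies at chr9:94175962-94175983 (plus strand), let-7g-5p at chr3:52268336-52268357 (minus strand) and miR-98-5p at chrX:53556299-53556320 (minus strand). RNA-seq of this kind does not measure mature microRNAs.
hsa-let-7a-5p: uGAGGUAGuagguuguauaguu
hsa-let-7g-5p: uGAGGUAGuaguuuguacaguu
hsa-miR-98-5p: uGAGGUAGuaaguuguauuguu

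LIN28B, IGF2BP1 and HMGA2 each hold 4 copies of the complement CTACCTC, searched on the transcript strand only, in the 3′UTR of their principal protein-coding transcript (GENCODE 29, GRCh38). Of 18029 3′UTRs read, 8.7% held at least 1 copy and 0.9% held at least 2; the other matches among these genes were single. IRS4, with a 3′UTR of 89 bases, held none. Of these matches, 2 windows in each of the 3 genes are printed, with the match in capitals at the 3′ end; the number after the symbol is the position of the match in the 3′UTR. A match of letters is a description and not a shown site of binding, and several of these genes were picked as known let-7 targets, so the shares are given with no test.
LIN28B, 44: acccggttgcaaagtCTACCTC
LIN28B, 2471: tactgatgatagtaaCTACCTC
IGF2BP1, 1632: tgtgtgcgaagtaaaCTACCTC
IGF2BP1, 4269: cagcagtgctagtaaCTACCTC
HMGA2, 21: gccaacgttcgatttCTACCTC
HMGA2, 1256: ccccactactcaataCTACCTC

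Library totals ran from 31238740 to 85942315 counts. Levels are given as CPM, counts per 1e6 counts of a library, after 1 TMM scaling over all 22 libraries. Libraries labelled as replicates did not behave alike. HDAC6 itself was 43.0 and 50.1 CPM in shCtrl replicates 1 and 2 against 11.2 to 12.9 in the 4 hairpin libraries with those numbers, and 26.1 CPM in shCtrl replicate 3 against 11.45 and 13.97 in the hairpin libraries numbered 3, so the targeted transcript was lower in all 6 hairpin libraries. Against the line's own markers, the 6 hairpin-experiment libraries numbered 1 and 2 stood apart from the other 16. The summed level of 12 genes that MDA-MB-231 is known to express (CD44, AXL, VIM and others) was 855 to 976 CPM in those 6 and 4120 to 8110 CPM in the other 16; CD44 was 18.9 to 21.9 CPM in the 6 and 294 to 628 CPM elsewhere. CDKN2A, which is deleted in MDA-MB-231, was 132 to 175 CPM in the 6, 8.84 and 29.1 CPM in the shHDAC6 replicate 3 libraries, and at most 2 counts in the remaining 14. A list of 9 luminal and epithelial genes described as low or absent in the line, CDKN2A among them, did not separate the libraries in the same way: its sum was 193 to 236 CPM in the 6 and 149 to 1110 CPM elsewhere, where KRT19, a keratin, made up most of it (8.97 to 20.7 CPM in the 6, 121 to 1080 CPM elsewhere). The label MDA-MB231 is thus not borne out by the expressed markers and CDKN2A in the 6 libraries, while KRT19 was not low in the other 16. The 6 are called the replicate 1 and 2 libraries below; changes within them are tested against their own shCtrl libraries.

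IRS4 (X:108732482-108736409, minus strand, GRCh38, a gene of 3928 exonic bases) gave the sharpest on-off pattern. Its level was 303 and 345 CPM in shCtrl replicates 1 and 2, 601 and 465 CPM in shHDAC6-1, and 640.1 and 606 CPM in shHDAC6-2. It was 9.09 CPM (628 counts) in shHDAC6-1 replicate 3 and 26.85 CPM (1311 counts) in shHDAC6-2 replicate 3. In shCtrl replicate 3 and in the 13 other libraries it had 0 counts. With a floor of 3 counts per library, the lowest of the 6 replicate 1 and 2 libraries was at least 3110-fold higher than any of those 14. Per kilobase of exon, IRS4 averaged 126 CPM in the 6, close to HMGA1 at 137 CPM per kb, and above the other 8 genes.

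PAX2 (10:100735603-100829941, plus strand) followed the same order at a lower level. It was 8.49 and 10.2 CPM in shCtrl replicates 1 and 2, 6.004 and 6.07 CPM in shHDAC6-1, 6.82 and 7.88 CPM in shHDAC6-2, 0.0868 CPM (6 counts) and 1.00 CPM (49 counts) in the hairpin libraries numbered 3, and 0 counts in the other 14. The 6 libraries did not overlap with any other, and the lowest was at least 61.6-fold higher than the floor of the 14. Among 16 other genes of kidney development, 13 reached a mean of 1 CPM in the 6 libraries, for example EYA1, a phosphatase and transcriptional co-activator, at 10.9 to 14.6 CPM against at most 0.99 CPM in every other library. PAX8, the close relative of PAX2, was lower in the 6 (0.203 to 0.989 CPM) than in all other libraries (3.07 to 14.4 CPM).

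LIN28B (6:104936616-105083332, plus strand) was 92.0 and 73.5 CPM in shCtrl replicates 1 and 2, 137 and 133 CPM in shHDAC6-1, and 139 and 124 CPM in shHDAC6-2. In the remaining 16 libraries its highest level was 0.86 CPM, from 42 counts in shHDAC6-2 replicate 3; shHDAC6-1 replicate 3 had 2 counts and the other 14 had 0 to 4. The lowest of the 6 was 676 times the highest of the 14. LIN28A (1:26410778-26429722, plus strand), its relative, had 0 to 17 counts in every library, so the family was represented by LIN28B alone at this depth. Counts this low are mostly even numbers (65.7 to 75% of values from 1 to 20, against about 50% above 1000), so intervals that treat each count as independent may be too narrow. TRIM71, another heterochronic regulator and let-7 target, was also high in the 6 (5.53 to 12 CPM) and at most 0.205 CPM elsewhere, although within the 6 it fell with shHDAC6-1.

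IGF2BP1 (17:48997412-49055650, plus strand) was 254 and 308 CPM in shCtrl replicates 1 and 2, 319 and 284 CPM in shHDAC6-1, and 375 and 363 CPM in shHDAC6-2. The hairpin libraries numbered 3 held 13.1 CPM (903 counts) and 38.0 CPM (1857 counts), shCtrl replicate 3 held 0 counts, and the other 13 libraries held at most 26 counts (0.415 CPM). The paralogues were present everywhere. IGF2BP2 (3:185643739-185825056, minus strand) ran from 57.4 to 71.4 CPM in the 6 libraries and from 73.7 to 159 CPM in the other 16. IGF2BP3 (7:23310209-23470467, minus strand) was 75.7 to 123 CPM in the 6, 132 to 179 CPM in the Ctrl and Nexturastat A libraries, and 22.02 to 32.4 CPM in the DMSO, HPOB and Tubastatin A libraries. Per kilobase, IGF2BP1 led the family in the 6 libraries (34.8 CPM per kb against 13.7 for IGF2BP2 and 12.1 for IGF2BP3), and IGF2BP2 led it in the Ctrl and Nexturastat A set (29.5 against 18.4 for IGF2BP3) and the DMSO, HPOB and Tubastatin A set (27.9 against 3.44).

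SALL4 (20:51782331-51802520, minus strand) was low throughout. It was 3.79 and 3.87 CPM in shCtrl replicates 1 and 2, 1.40 and 1.78 CPM in shHDAC6-1, and 2.49 and 2.17 CPM in shHDAC6-2, from 76 to 257 counts. All DMSO, HPOB and Tubastatin A libraries held 1 to 16 counts (0.0325 to 0.398 CPM), and the Ctrl, Nexturastat A and shCtrl replicate 3 libraries held 0 to 2. Of 18 other pluripotency and SALL family genes, 9 reached 1 CPM in the 6 libraries and 4 or 5 in each other set; DNMT3B, a de novo DNA methyltransferase of early embryos, was 60.9 to 133 CPM in the 6 and 6.92 to 22 CPM elsewhere.

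HMGA1 (6:34236873-34246231, plus strand) ran the other way. It was 285 to 370.2 CPM in the 6 replicate 1 and 2 libraries, and in the other 16 it was never below 590.3 CPM. HMGA2 (12:65824131-65966295, plus strand) was 51.4 to 109 CPM in the 6, 57.3 to 78.9 CPM in the DMSO, HPOB and Tubastatin A libraries, and 227 and 261 CPM in Ctrl, the highest group. HMGA1 has processed pseudogenes, and how shared reads were counted is not stated in the labels. Nor is the strand setting, so reads of IGF2BP2, LIN28B and HMGA2 cannot be told apart from those of their antisense transcripts.

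**Figure D1:**
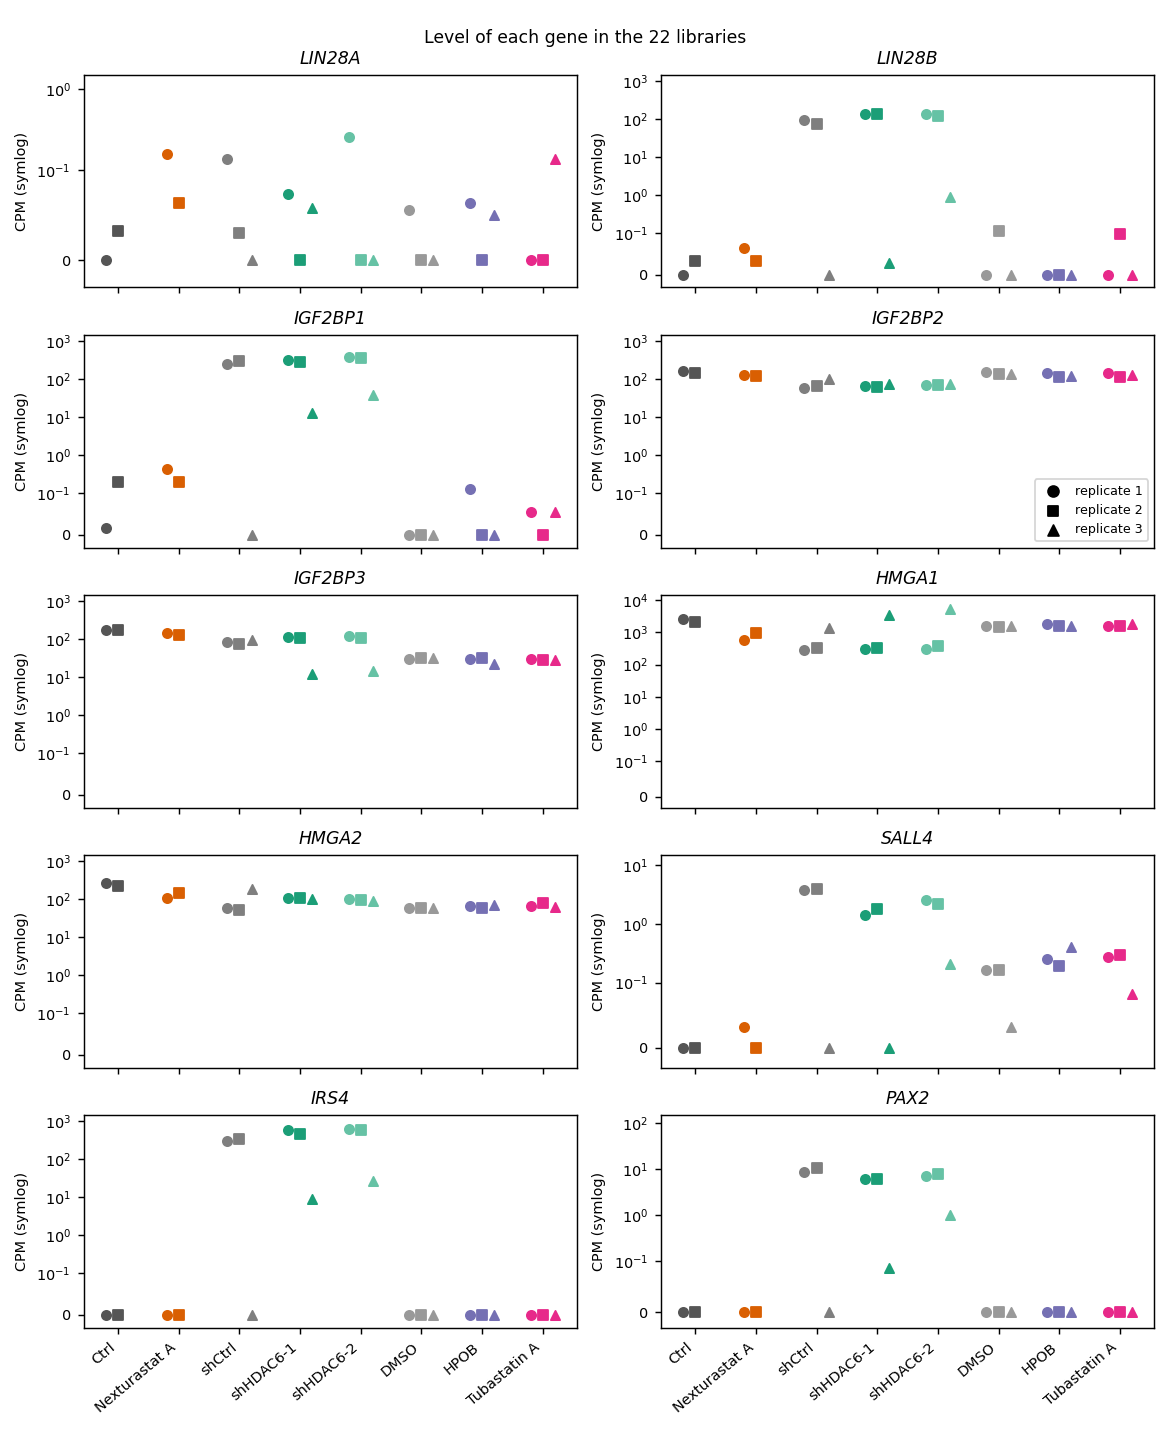
Level of each of the 10 genes in CPM (symmetric log axis, linear below 0.1) in the 22 libraries by group; symbols mark the replicate number. LIN28B, IGF2BP1, IRS4, PAX2 and SALL4 are high in the hairpin-experiment libraries numbered 1 and 2, intermediate or near 0 in the hairpin libraries numbered 3, and at or near 0 in the others; HMGA1 is lowest in the libraries numbered 1 and 2.

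The genes with the most similar profiles over the 22 libraries were sought among 12017 genes that reached 10 CPM in at least 2 libraries, by the root mean square difference of centred log2(CPM + 0.5). For IRS4 the nearest were UCHL1, a neuronal ubiquitin hydrolase (difference 0.405), IGF2BP1 itself (0.448) and NID1, a basement membrane protein (0.552). For LIN28B they were ZNF711 (0.228), the desmosomal cadherin DSC3 (0.293) and the heparan sulphotransferase HS6ST2 (0.401). UCHL1 (0.263), NID1 (0.355) and the axonal motor KIF1A (0.366) were nearest to IGF2BP1; IGSF21 (0.188), FAM43B (0.206) and SYT6 (0.225) were nearest to PAX2. SALL4, which lies near the floor, was closest to WDR91 (0.324), DNMT3B (0.34) and TMEM177 (0.344), and WDR91 and TMEM177 were also expressed, at up to 17.4 and 18.5 CPM, in the 14 libraries left without the 6 and the hairpin libraries numbered 3. The 22 libraries that these profiles rest on fall into the sets described above.

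The promoters of IRS4 and LIN28B are printed because both genes were on in the same libraries; they span the transcription start of the RefSeq model (GRCh38.p14), with each CpG in capitals. RefSeq and GENCODE place these starts differently: the IRS4 window lies wholly upstream of the GENCODE gene given above, and the LIN28B window lies inside the GENCODE gene, downstream of its first base. IRS4 lies at chrX:108736514-108736813 (minus strand) with 23 CpGs and LIN28B at chr6:104940715-104941014 (plus strand) with 37, against a median of 14 over 27305 promoters. Each held 2 copies of the GC box GGGCGG (either strand), a motif in 44.6% of all promoters, and neither held TATAAA (12%), CCAAT (35.7%) or CACGTG (7.4%), each also searched on both strands.
IRS4: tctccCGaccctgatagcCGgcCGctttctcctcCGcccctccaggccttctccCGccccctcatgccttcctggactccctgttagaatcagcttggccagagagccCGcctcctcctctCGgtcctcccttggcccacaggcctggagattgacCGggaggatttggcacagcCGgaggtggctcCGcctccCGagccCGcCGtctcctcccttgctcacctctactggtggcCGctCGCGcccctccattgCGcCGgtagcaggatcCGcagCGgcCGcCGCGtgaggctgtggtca
LIN28B: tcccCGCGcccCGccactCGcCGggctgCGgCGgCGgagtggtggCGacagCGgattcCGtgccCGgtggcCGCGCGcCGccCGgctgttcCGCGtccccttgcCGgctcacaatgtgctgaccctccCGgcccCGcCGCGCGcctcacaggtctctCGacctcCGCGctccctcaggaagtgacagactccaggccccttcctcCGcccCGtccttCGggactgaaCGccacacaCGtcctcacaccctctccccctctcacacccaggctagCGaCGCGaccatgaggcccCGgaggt

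The hairpin libraries numbered 3 carried traces of the genes that marked the replicate 1 and 2 libraries. As a share of the mean level in the same hairpin's replicates 1 and 2, IRS4 stood at 1.7% (95% exact Poisson interval 1.57 to 1.84) in shHDAC6-1 replicate 3 and at 4.31% (4.08 to 4.55) in shHDAC6-2 replicate 3. IGF2BP1 stood at 4.34% (4.06 to 4.63) and 10.3% (9.85 to 10.8). PAX2 stood at 1.44% (0.528 to 3.13) and 13.7% (10.1 to 18.1). All 3 shares were higher in shHDAC6-2 replicate 3 than in shHDAC6-1 replicate 3, and shCtrl replicate 3 had 0 counts of each.

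The LIN28B share was below those of IRS4, IGF2BP1 and PAX2 in both libraries. It stood at 0.0214% (0.00259 to 0.0772), from 2 counts, in shHDAC6-1 replicate 3 and at 0.654% (0.471 to 0.884) in shHDAC6-2 replicate 3. SALL4 had 0 counts in the first, which allows a share of up to 2.73%, and 8.78% (4.21 to 16.2) in the second. That second value came from 10 counts (0.205 CPM). It lay within the 0.0325 to 0.398 CPM of SALL4 in the DMSO, HPOB and Tubastatin A libraries, so it cannot be told from their level. CDKN2A, the marker deleted in MDA-MB-231, stood at 5.44% (5.02 to 5.89) and 20.02% (18.99 to 21.1). The shares of IRS4, IGF2BP1 and LIN28B differed from each other by more than counting error within each library; the intervals cover counting error only. With shCtrl replicates 1 and 2 as the reference, some shares moved by over 1.5 times in both directions: those of IRS4 were 2.81% and 8.29% and those of LIN28B 0.035% and 1.04%, while PAX2 stood at 0.928% in shHDAC6-1 replicate 3 and SALL4 at 5.35% in shHDAC6-2 replicate 3. In such bulk libraries fewer cells of a kind and less RNA per cell cannot be told apart.

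Genes of the same kind gave a scale for these traces. At least 10 CPM in each of the 6 libraries and at most 0.1 CPM in the 14 was reached by 64 genes, of which 1 (IRS4) belongs to the 10 described here and 63 have a GC content in the annotation. Their median share was 2.99% (0.325 to 18.3) in shHDAC6-1 replicate 3 and 9.13% (0.487 to 31.0) in shHDAC6-2 replicate 3. LIN28B, with 38.1% GC, was below the lowest of the 63 in the first library and near the lowest in the second. Shares rose with exonic GC content: the medians of 3 equal classes from low to high GC were 1.02%, 2.4% and 5.74% in shHDAC6-1 replicate 3 and 4.8%, 6.97% and 16.2% in shHDAC6-2 replicate 3 (Spearman's rho 0.65 and 0.63 over 63 genes that share 2 libraries, as a description).

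**Figure D2:**
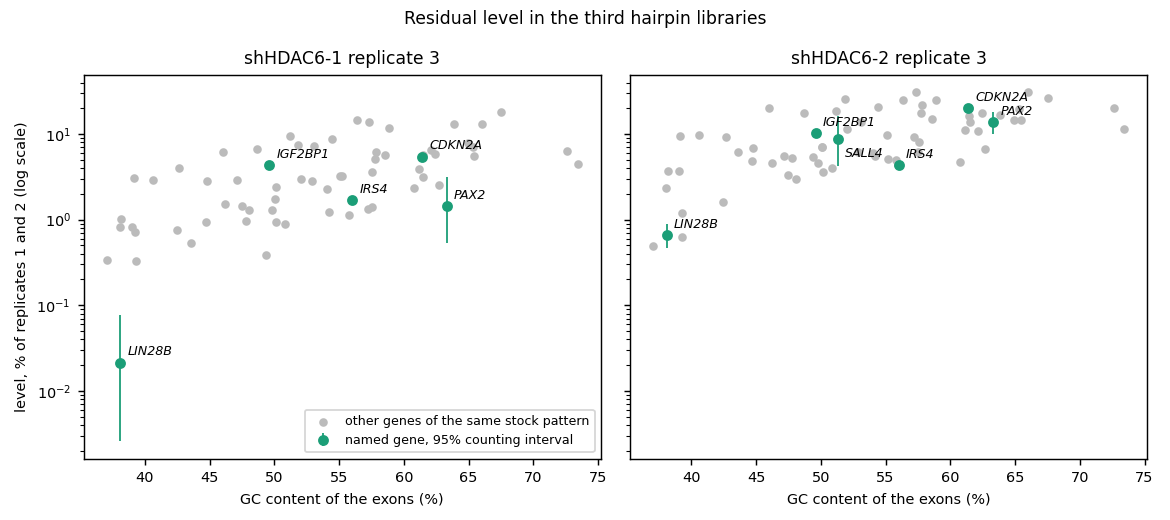
Level in each hairpin's library numbered 3 as a percentage of the mean of its replicates 1 and 2 (log axis) against exonic GC content; grey points are the 63 genes high in the 6 libraries and near 0 in the 14, green points the named genes with 95% counting intervals (genes with 0 counts not drawn). LIN28B is the lowest named gene drawn in both panels, and shares are higher at higher GC.

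GC content also moved with the whole difference between the libraries numbered 3. Over 11303 genes of at least 1 CPM in the 3 libraries, the log2 ratio of hairpin to shCtrl correlated with GC (Spearman's rho 0.812 for shHDAC6-1 and 0.799 for shHDAC6-2, across genes of 2 libraries and 1 shared control, as a description). Sorted into 5 equal classes by GC, the lowest class had median log2 ratios of -2.37 and -2.43 and the highest 1.36 and 1.19. IGF2BP3 (40.5% GC) was 92.6 CPM in shCtrl replicate 3 against 12 and 14.1 CPM in the hairpin libraries, ratios of 0.13 and 0.153. HMGA2 (38.8% GC) was 181 CPM against 100.1 and 88.4 CPM, ratios of 0.552 and 0.487. HMGA1 (61.3% GC) was 1390 CPM against 3391 and 5353 CPM, ratios of 2.44 and 3.85. IGF2BP2 (48.7% GC) was 99.1 CPM against 73.7 and 74.9 CPM, ratios of 0.743 and 0.756. These are single libraries with no replicate check, the order of the ratios follows the order of GC content except between HMGA2 and IGF2BP3, and the part of GC in them was not tested.

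Within the replicate 1 and 2 libraries, depletion of HDAC6 was accompanied by higher levels of LIN28B, IGF2BP3, HMGA2 and IRS4 and lower levels of SALL4 with both hairpins. The comparison was fitted on 17702 genes with edgeR's quasi-likelihood test and Benjamini-Hochberg adjustment at 0.05, and 9 of the 10 genes passed the filter on low counts (LIN28A did not). With shHDAC6-1, 4 of the 9 rose and 2 fell, 6 in all, where 30.5% of all genes tested changed (15.3% higher, 15.2% lower). With shHDAC6-2, 5 rose and 1 fell, also 6, where 27.6% of all genes changed (14.4% higher, 13.2% lower). Both hairpins share the 2 shCtrl libraries.

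HMGA2 rose with both hairpins: it was 59.7 and 51.4 CPM in shCtrl, 109 and 107 CPM in shHDAC6-1, and 103 and 92.9 CPM in shHDAC6-2. The groups did not overlap. The shHDAC6-1 log2 fold change was 0.98 ± 0.12 (SE; adjusted p = 1.88e-06), and that of shHDAC6-2 was 0.85 ± 0.12 (adjusted p = 1.24e-05). LIN28B rose by 0.73 ± 0.12 on the log2 scale (adjusted p = 0.00011) and 0.70 ± 0.12 (adjusted p = 0.000183), with the 4 hairpin libraries above both shCtrl libraries. IGF2BP3 rose from 82.3 and 75.7 CPM to 115 and 109.7 CPM with shHDAC6-1 (log2 0.53 ± 0.12, adjusted p = 0.00133) and to 123 and 110.4 CPM with shHDAC6-2 (0.60 ± 0.12, adjusted p = 0.000463).

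IRS4 rose by 0.74 ± 0.12 (adjusted p = 6.93e-05) and 0.98 ± 0.12 (adjusted p = 2.73e-06), and its 4 hairpin libraries lay above both shCtrl libraries. IGF2BP1 changed by 0.12 ± 0.12 with shHDAC6-1 (adjusted p = 0.454) and rose by 0.43 ± 0.12 with shHDAC6-2 (adjusted p = 0.00814). That call was lost without shCtrl replicate 1 (adjusted p = 0.0638). The direct comparison of the hairpins gave 0.30 ± 0.12 for IGF2BP1 (adjusted p = 0.775; 95% interval 0.06 to 0.55), so a difference between them was not called. In that comparison edgeR called 0 of 17702 genes (0%; 1107 at an unadjusted p under 0.05, 0 with DESeq2), and 0 of the 9.

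SALL4 fell with both hairpins. Its log2 fold change was -1.247 ± 0.244 with shHDAC6-1 (adjusted p = 0.000446) and -0.68 ± 0.23 with shHDAC6-2 (adjusted p = 0.0332), without overlap between hairpin and shCtrl libraries. The second call was lost whenever any one of the shCtrl or shHDAC6-2 libraries was left out (adjusted p = 0.0593 to 0.155), and with all libraries kept under limma's voom with quality weights (-0.68, adjusted p = 0.0602). PAX2 fell by 0.61 ± 0.17 with shHDAC6-1 (adjusted p = 0.00959) and was 0.31 ± 0.17 lower with shHDAC6-2 (adjusted p = 0.184); the first call was lost with GC and length trends removed (-0.24, adjusted p = 0.16) and without shCtrl replicate 2 (0.102), shHDAC6-1 replicate 1 (0.066) or shHDAC6-1 replicate 2 (0.0611). IGF2BP2 differed by 0.03 ± 0.12 and 0.23 ± 0.12 (adjusted p = 0.865 and 0.167). HMGA1 differed by 0.04 ± 0.12 and 0.16 ± 0.12 (adjusted p = 0.858 and 0.364); with GC and length trends removed it was called higher, at 0.38 and 0.44. CDKN2A, for scale, differed by 0.27 ± 0.12 and 0.12 ± 0.12 (adjusted p = 0.103 and 0.503).

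**Figure D3:**
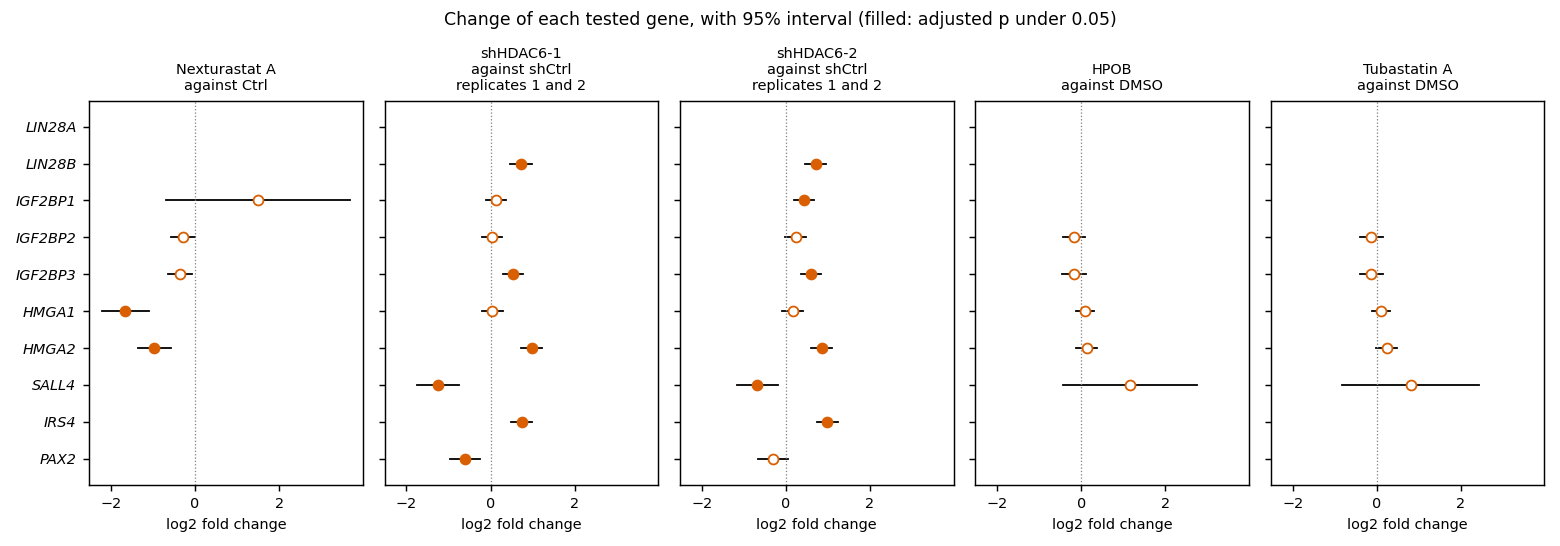
Log2 fold change of each tested gene with its 95% interval in 5 comparisons on 1 shared axis; filled points passed an adjusted p of 0.05 (edgeR). LIN28B, IGF2BP3, HMGA2 and IRS4 are higher and SALL4 lower with both hairpins in the replicate 1 and 2 libraries; HMGA1 and HMGA2 are lower with Nexturastat A; no gene is called with HPOB or Tubastatin A.

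Counts for other genes of the let-7 circuit are to be read against the 30.5% and 27.6% of all genes called with shHDAC6-1 and shHDAC6-2. Of 30 other let-7 targets tested, 12 rose and 5 fell with shHDAC6-1, and 13 rose and 2 fell with shHDAC6-2; their median log2 changes were 0.17 and 0.23, against -0.02 and 0.00 over all genes. NR6A1, an orphan nuclear receptor of the early embryo, rose by 2.31 ± 0.12 and 2.60 ± 0.12, IGDCC3 by 1.48 ± 0.14 and 1.55 ± 0.14, and PRTG by 1.41 ± 0.16 and 1.41 ± 0.15. The targets that fell included FIGNL2 (-1.11 and -1.42) and TRIM71, which holds 6 seed matches and fell by 0.66 ± 0.19 with shHDAC6-1 (adjusted p = 0.0113); with shHDAC6-2 its change was -0.145 (adjusted p = 0.612). Of 18 genes that process let-7, 3 rose and 2 fell with shHDAC6-1 and 6 rose and 1 fell with shHDAC6-2, among them DICER1, which cuts the hairpin (0.92 and 1.10), and AGO2, which carries the mature strand (0.74 and 1.21). Those that fell were TRIM71, which is on both lists, and AGO1 (-0.50) with shHDAC6-1 and PRKRA (-0.39) with shHDAC6-2. Of 6 genes listed as hosts of let-7 hairpins, 1 rose and 1 fell, then 1 rose; HUWE1, which holds let-7f-2 and miR-98, fell by 0.69 with shHDAC6-1, and the listed gene that rose, CTDSP2 (0.58 and 0.72), is known as the host of miR-26a and not of a let-7 hairpin. The processing genes with shHDAC6-1 and the hosts with either hairpin were called about as often as all genes or less.

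Sorted by the number of seed matches, genes with more matches lay higher with the hairpins. With shHDAC6-2 the median log2 change was 0.00 over 13322 genes with 0 matches, 0.07 over 1259 with 1, 0.16 over 126 with 2 and 0.21 over 31 with 3 or more; 41.9% of the last rose, 13 genes, against 15.5% of the first. With shHDAC6-1 the medians were -0.01, 0.03, 0.11 and 0.18, and 7 of the 31 rose while 6 fell. Among the 31 are the 3 genes LIN28B, IGF2BP1 and HMGA2; without them the last medians were 0.15 and 0.18. The classes differ in more than matches: the median 3′UTR length went from 932 to 5954 bases and the median GC content from 49.3% to 46.6%. With GC and length trends removed, the classes of 0, 1 and 2 matches had medians of 0.05, 0.06 and 0.06 with shHDAC6-1 and 0.03, 0.04 and 0.07 with shHDAC6-2, and the class of 3 or more 0.20 and 0.19. Without LIN28B, IGF2BP1 and HMGA2 these last medians were 0.17 and 0.11. The part of 3′UTR length was not tested.

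**Figure D4:**
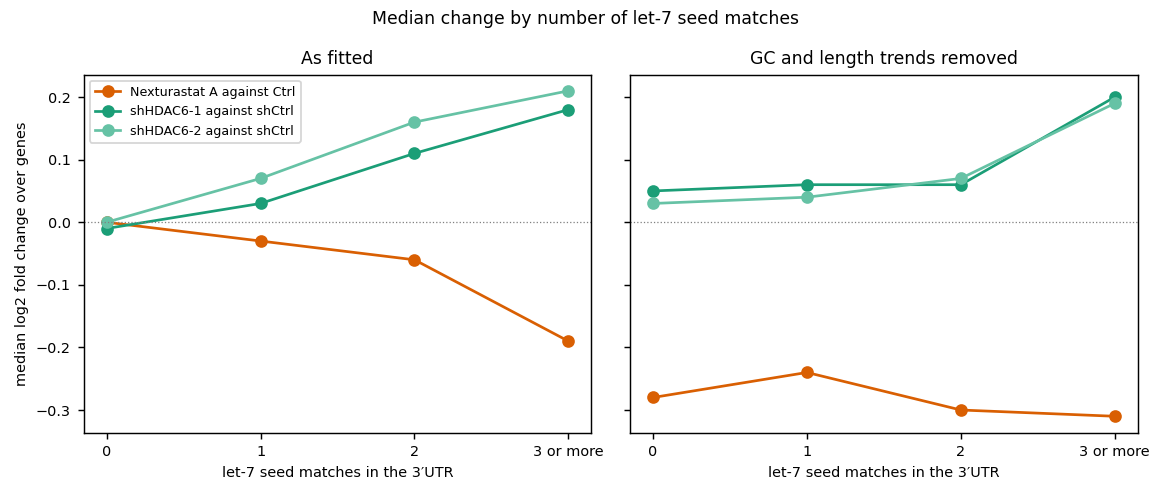
Median log2 fold change over all tested genes by number of let-7 seed matches in the 3′UTR, for Nexturastat A and both hairpins (replicates 1 and 2), as fitted and with GC and length trends removed. The hairpin medians are highest in the class of 3 or more matches in both panels, while the steps between 0, 1 and 2 matches nearly vanish once the trends are removed. With the hairpins that class includes LIN28B, IGF2BP1 and HMGA2.

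Genes that work with the 10 were called in both directions, beside the same 30.5% and 27.6% of all genes. Of 27 tested genes of insulin and IGF signalling, 7 rose and 4 fell with shHDAC6-1 and 7 rose and 3 fell with shHDAC6-2. PIK3R3, a regulatory subunit of phosphoinositide 3-kinase, rose by 1.32 ± 0.12 and 1.41 ± 0.12, IGFBP5 by 0.80 ± 0.13 and 1.00 ± 0.13, and IGFBP6 fell by 0.83 ± 0.16 and 1.00 ± 0.16. Of 16 mRNAs known to be bound by IGF2BP proteins, 3 rose and 5 fell, then 4 rose and 3 fell; CCND1, a cyclin of the G1 phase, rose by 0.43 ± 0.11 and 0.50 ± 0.11 and SRF fell by 1.14 ± 0.12 and 1.04 ± 0.12. IGF2, the mRNA that named the family, was between 0.743 and 2.42 CPM in the 6 libraries and at most 0.0289 CPM elsewhere. Of 10 other HMG proteins, 5 rose with shHDAC6-1 and 1 with shHDAC6-2, HMGN5 in both (0.78 and 0.48). Of 11 SALL and pluripotency genes, 1 rose (SOX2, 0.53 and 0.51) and 2 fell with each hairpin (DNMT3B, -0.92 and -0.75, and SALL2, -0.63 and -0.46). Of 16 kidney development genes tested, 2 rose and 1 fell with each hairpin; CITED1 rose by 0.60 ± 0.14 and 0.57 ± 0.14, and PAX8 was the one that fell. Of 7 serum and placental oncofetal genes, 1 rose and 1 fell with shHDAC6-1 and 1 fell with shHDAC6-2; PEG10 fell in both (-1.88 and -1.78). The counts of the pluripotency, kidney and oncofetal lists with both hairpins, and of the HMG list with shHDAC6-2, were near the share over all genes or below it.

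Marker counts are to be read against the same 30.5% and 27.6% of all genes called with shHDAC6-1 and shHDAC6-2. Of the 12 MDA-MB-231 markers, 2 rose and 3 fell with shHDAC6-1 and 3 rose and 3 fell with shHDAC6-2. Of the 9 genes listed as low or absent in the line, 1 fell in each (KRT19, -0.96 and -0.78), a gene that these files show at high levels outside the 6. That list was called less often than all genes. Of 7 neuronal genes, 2 rose and 3 fell, then 2 rose and 2 fell: the neurofilaments NEFM (0.88 and 1.09) and NEFL (0.80 and 0.80) rose and MAP2 fell (-1.07 and -1.10), with DCX (-4.27) and TUBB3 (-0.50) falling in the first and INA (-0.69) in the second. Of 5 airway genes, 3 fell in each, led by AGR2 (-3.46 and -2.52) and MUC5AC (-3.38 and -2.73). The airway genes were 14.7 to 31.2 CPM in sum in the 6 libraries, and 352 CPM in shCtrl replicate 3. Their part in the results for the 10 genes was not tested.

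When the libraries numbered 3 were added, no change of the 10 genes was called. Over all replicates, 17653 genes were tested, edgeR called 0 with each hairpin (0% and 0%; 191 and 219 at an unadjusted p under 0.05, 6 and 6 with DESeq2), and 0 of the 9 genes. Each group then joined 2 libraries in which LIN28B and IRS4 were high with 1 in which they were far lower or at 0, and the standard error with shHDAC6-1 was 2.49 for LIN28B (log2 fold change 0.71) and 2.16 for IRS4 (0.73). For HMGA1 the estimates were 1.00 ± 1.38 and 1.59 ± 1.40. IGF2BP3 stood at -0.08 ± 0.90 and -0.02 ± 0.90. The fit over all replicates did not pair libraries by number, and with a replicate block it also called 0 genes with each hairpin.

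Nexturastat A lowered both HMGA genes. HMGA1 was 2612 and 2158 CPM in Ctrl and 590.3 and 947 CPM after 2 days of Nexturastat A. HMGA2 was 261 and 227 CPM in Ctrl and 108 and 145 CPM with the inhibitor. Neither pair overlapped with its control. The log2 fold changes in edgeR were -1.66 ± 0.24 (adjusted p = 0.00371) and -0.97 ± 0.17 (adjusted p = 0.00628), 31.7% and 51.1% of control. Among 16678 genes tested, 36.6% changed (15.5% lower and 21.1% higher), so 2 lower genes of the 5 tested here stand beside a broad response. Without Ctrl replicate 1 HMGA2 was no longer called (adjusted p = 0.0583).

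IGF2BP3 was 179 and 172 CPM in Ctrl and 144 and 132 CPM with Nexturastat A, a log2 change of -0.37 ± 0.12 that missed the threshold (adjusted p = 0.0508). IGF2BP2 was 159 and 146 CPM against 131 and 123 CPM (-0.29 ± 0.12, adjusted p = 0.105). IGF2BP1 had 1 and 12 counts in Ctrl and 26 and 12 with the inhibitor (adjusted p = 0.24). IRS4 and PAX2 had 0 counts in all 4 libraries, LIN28B 0 to 4, LIN28A 0 to 10 and SALL4 0 to 2. None of these 5 entered the test, and their response was not detectable at this depth.

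Other HMG proteins fell with the HMGA genes, in a comparison where 36.6% of all genes changed (21.1% higher and 15.5% lower). Of 10 tested, 6 fell and 1 rose with Nexturastat A: HMGB3 by 2.00 ± 0.22, HMGB2 by 2.00 ± 0.36 and HMGN2 by 1.82 ± 0.14 on the log2 scale, while HMGN5 rose by 1.88 ± 0.18. The median of the 10 was -0.57, against 0.03 over all genes. Of 25 let-7 targets tested, 3 rose and 2 fell, with MYC 2.05 ± 0.14 higher and PRTG 0.95 ± 0.14 lower. Of 17 let-7 processing genes 4 fell, AGO4 by 1.07 ± 0.16, DROSHA by 0.72 ± 0.14 and SYNCRIP by 0.59 ± 0.12, and of 6 genes on the let-7 host list the 1 that fell was CTDSP2, the host of miR-26a (-0.43 ± 0.12). Of 14 IGF2BP-bound mRNAs 2 rose (MYC and CCND1, 0.69 ± 0.15) and 1 fell. Of 26 insulin and IGF genes 5 rose and 6 fell, with IGFBP2 up by 2.32 ± 0.18, IGFBP1 down (-2.29 ± 0.28) and PIK3CA down (-1.38 ± 0.19). Counting both directions, the let-7 target, processing and host lists and the IGF2BP-bound mRNAs were called less often than all genes. The insulin and IGF list was near the share over all genes.

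Genes of the remaining lists moved with Nexturastat A as well, beside the same 36.6% of all genes, some of them from levels near 0. Of 11 kidney genes tested 6 rose, among them WT1, which did not pass 1.5 CPM in any of the 4 libraries; of 9 serum and placental genes 6 rose and 1 fell (MDK, -1.12 ± 0.16). Of 7 pluripotency genes 1 rose and 2 fell. Both neuronal genes tested rose (MAP2 by 2.80 ± 0.17 and TUBB3 by 2.15 ± 0.17), 2 airway genes rose and 4 fell of 7, 3 of 7 genes listed as low or absent in MDA-MB-231 rose (ESR1, and KRT19 and FOXA1, which at 284 to 719 and 8.92 to 14.2 CPM were not absent from these libraries), and of its 12 markers 3 rose and 2 fell. The pluripotency list and both MDA-MB-231 lists were called about as often as all genes. For LIN28B, IRS4, PAX2 and SALL4 no rise from near 0 was detectable at the depth of these libraries. The estimate for IGF2BP1 was a rise that was not called.

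HPOB and Tubastatin A left the 5 tested genes without a called change. In DMSO, HPOB and Tubastatin A, HMGA1 was 1542 ± 39.8, 1640.0 ± 115.8 and 1652 ± 100.8 CPM (SD, n = 3), and HMGA2 58.1 ± 0.698, 63.8 ± 5.42 and 68.0 ± 9.7 CPM. IGF2BP2 was 142 ± 8.37, 126 ± 16.4 and 129 ± 17.6 CPM, and IGF2BP3 31.4 ± 0.868, 28.0 ± 5.31 and 28.6 ± 1.07 CPM. HPOB libraries overlapped with DMSO for all 4 genes. Tubastatin A libraries overlapped with DMSO for IGF2BP2, lay above DMSO for HMGA1 and HMGA2 and below it for IGF2BP3, with no call in any. Against DMSO the 95% intervals of the log2 change were -0.14 to 0.29 (HPOB) and -0.11 to 0.32 (Tubastatin A) for HMGA1, and -0.12 to 0.37 and -0.01 to 0.48 for HMGA2. SALL4, at 1 to 6 counts per DMSO library, had intervals of -0.43 to 2.76 and -0.82 to 2.42.

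Over 15338 genes, edgeR called 4 with HPOB (0.0261%) and 0 with Tubastatin A (0%), and 0 of the 5 genes in each. At an unadjusted p under 0.05 edgeR gave 1588 and 757 genes. DESeq2 called 101 genes higher and 19 lower with HPOB, and 23 with Tubastatin A. HMGA1 with Nexturastat A was at 31.7% of its control, and at 106% with HPOB and 108% with Tubastatin A. These values stand side by side only, because the experiments had separate controls, the doses of 2 of the compounds are not given, and the starting HMGA1 level differed (2612 and 2158 CPM in Ctrl against 1501 to 1581 CPM in DMSO).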

How the data were processed

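Total RNA of 22 libraries was sequenced. The authors deposited 1 table of raw read counts per gene and library; per the submitters' processing notes Trim Galore 0.6.7, STAR 2.7.9a, featureCounts 2.0.3 and DESeq2 1.30.1 were used, with GRCh38 (hg38). Annotation, strand setting and the handling of shared reads: not given in the sources used here. Groups followed the labels. Of 26485 symbols, 23899 (90.24%) matched GENCODE 29, the source of positions, GC content and 3′UTRs. From the counts, edgeR 4.0.16 quasi-likelihood tests (TMM scaling, filterByExpr with a minimum count of 10 and total of 15) were run per experiment over all genes with Benjamini-Hochberg adjustment at 0.05, in R 4.3.3, and checked on simulated counts. Alternatives were DESeq2 1.42.0, limma 3.58.1 voom weights, other filters and scalings, removal of GC and length trends (spline with 3 degrees of freedom), a replicate block and leaving out each library. Levels are CPM over 1 scaling of 22 libraries, and the floor is 3 counts. Intervals are 95%. Those of the trace shares cover counting error only, and those of log2 changes rest on the edgeR standard error, which includes the spread between libraries. Named genes were the 10 genes, HDAC6 and CDKN2A, up to 3 called genes per list and direction with the largest change (some given here in part), and the 3 nearest profiles. Genes whose levels by set are given beside a list (CD44, EYA1, TRIM71, DNMT3B, IGF2, PAX8) were chosen after their values were seen. The genes and lists were chosen with earlier results of these data known. Deviations of same-numbered libraries correlated at 0.105 (Nexturastat A), -0.046 to 0.161 (hairpins, replicates 1 and 2), -0.155 to 0.198 (DMSO, HPOB and Tubastatin A) and 0.468 to 0.938 (hairpins, all replicates). Every main fit used the group alone, also over all replicates, and the replicate block was an alternative only. Over all hairpin replicates, differently numbered libraries correlated at -0.906 to 0.859: number 3 stands apart, and numbers 1 and 2 are not told apart by these values.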

Additional observations from a re-analysis of the deposited data

Results flagged for a closer look

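IGF2BP3 and HMGA2 each lay above shCtrl in hairpin libraries numbered 1 and 2 and below it in those numbered 3. These sets also stood apart in the markers of the line, as given above. In each of the 4 hairpin libraries numbered 1 and 2, IGF2BP3 lay above the mean of shCtrl replicates 1 and 2, by a mean log2 ratio of 0.54, and in both hairpin libraries numbered 3 it lay below shCtrl replicate 3, by a mean log2 ratio of -2.83. For HMGA2 the mean log2 ratios were 0.89 and -0.95, again with every library on the stated side. The difference between the replicate numbers was not tested, since shCtrl replicate 3 is a single library. Both genes have low GC content (40.5% and 38.8%), and low-GC genes as a whole were lower in the third hairpin libraries. The lowest of 5 GC classes had median log2 ratios of -2.37 with shHDAC6-1 and -2.43 with shHDAC6-2. IGF2BP3 (-2.95 and -2.71) lay below these medians and HMGA2 (-0.86 and -1.04) above them. The part of GC in the 2 values was not tested.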

How the results depend on the processing

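For Nexturastat A 2 of the 5 tested genes were called, and 4 with GC and length trends removed (IGF2BP3 and IGF2BP2 added). Over all genes, removal of the trends gave 2414 higher and 5313 lower, against 3520 and 2592 as fitted. Without Ctrl replicate 1 HMGA2 was at -0.873 and was no longer called. HMGA1 was called under all 11 alternatives (adjusted p 5.57e-10 to 0.029), and IGF2BP3 was called with DESeq2, without the filter, with voom and without either Nexturastat A library. In that experiment removal of the trends moved the median of all genes from 0.03 to -0.26 and the share of calls that were higher from 57.6% to 31.2%, so the values of IGF2BP2 (-0.59) and IGF2BP3 (-0.45) under it stand against that median. Library totals moved that median to 0.12 and the split in the hairpin fits from 50.1% and 52.1% to 36.9% and 35.8%; with trends removed it was 61.9% and 60.0%. HMGA2, LIN28B, IGF2BP3 and IRS4 kept their direction and call with both hairpins in replicates 1 and 2 under all 14 alternatives, and SALL4 with shHDAC6-1. With voom weights over all replicates 1 of the 9 tested genes was called with each hairpin, HMGA2, at 0.92 (adjusted p = 0.000847) and at 0.747 (adjusted p = 0.00313), where the unweighted value with shHDAC6-2 was -0.05; the cause was not tested. Under these weights 3492 and 2801 of 17653 genes were called, so 1 of 9 was below the share over all genes. With a replicate block the genes called were 2 for Nexturastat A, 6 and 6 for the hairpins in replicates 1 and 2, and 0 for the hairpins over all replicates, HPOB and Tubastatin A, so it changed no count. Over all genes, calls ranged over the alternatives from 1781 to 8922 (6112 as fitted) for Nexturastat A, 3160 to 7352 (5401) and 3470 to 7234 (4880) for the hairpins in replicates 1 and 2, 0 to 66 (0) between them, 0 to 3492 and 0 to 2801 (0 and 0) over all replicates, 0 to 120 (4) for HPOB and 0 to 26 (0) for Tubastatin A. IGF2BP1 with shHDAC6-1 and IGF2BP2 with shHDAC6-2 were called only with trends removed (0.21 each). The median share of 5 genes in the third hairpin libraries was 1.44% and 8.78% as reported, 1.09% and 6.89% with library totals, and 0.928% and 8.29% with the shCtrl reference. As reported, these medians were the values of single genes with few counts: PAX2 (6 counts) with shHDAC6-1 and SALL4 (10 counts) with shHDAC6-2. The SALL4 value lay within its range in the DMSO, HPOB and Tubastatin A libraries. Depth limits LIN28A, and outside the replicate 1 and 2 libraries LIN28B, PAX2 and SALL4.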
